A study of Mus musculus with 18 samples.

Results

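Tight junctions seal the space between the cells of an epithelium. Claudins are small membrane proteins that form their strands: some tighten the seal against ions, while others, such as Cldn2, open it as channels. Occludin (Ocln) joins claudins in the strand, and Tjp1 (ZO-1) is a scaffold that ties the strand to the cytoskeleton. In the bladder the seal lies mainly between umbrella cells, the top layer of the urothelium that faces urine, where Cldn4, Cldn8 and Cldn12 proteins are known in the rat. These genes were described here across cyclophosphamide injury and a diet enriched in vitamin A, the source of retinoic acid. The 10 genes were taken by name from the deposited gene count table, which holds 46333 named genes: Cldn1, Cldn2, Cldn3, Cldn4, Cldn7, Cldn8, Cldn12, Cldn23, Tjp1 and Ocln.

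The samples were whole urinary bladders from female wild type mice of the BALB/c strain, 8 weeks old, and their RNA gave 18 libraries: 6 groups with 3 mice each. Cyclophosphamide (CP), an alkylating drug whose urinary metabolites damage the urothelium, was given intraperitoneally at 150 mg/kg, or saline was given in its place. The groups were CP at 1 day on the vitamin A diet, CP at 1 day on the normal diet, CP at 3 days on the vitamin A diet, CP at 3 days on the normal diet, saline at 1 day on the vitamin A diet and saline at 1 day on the normal diet. The enriched diet began 1 week before the injection. The labels give it as 566081 UI of retinyl acetate per kg, whereas the series description names retinyl palmitate. Saline bladders were collected at 1 day, so the comparisons of CP at 3 days with saline also differ in day of collection. Animals shared cages in groups of 3 and the labels do not say which, so a cage effect and a group effect cannot be told apart.

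Libraries held 19439887 to 34431039 counts on named genes, with 1.67% to 3.82% on mitochondrial genes. One library stood apart: in replicate 2 of CP at 3 days on vitamin A, genes under 1 kb took 14.2% of counts, against 7.13% to 10.8% in the other libraries. Results at 3 days on vitamin A are therefore also given without it where they move. RNA from a whole organ cannot tell fewer cells of a type from less RNA per cell. The epithelial markers Epcam, Cdh1, Krt7, Krt8, Krt18 and Krt19 all passed the low-count filter, and the umbrella cell markers Upk1a, Upk1b, Upk2, Upk3a and Krt20 summed to between 1631 and 5659 FPKM (fragments scaled by gene length and by library total). Of 5 markers of neighbouring kidney and genital tract epithelia, the kidney marker Umod was at 0 in every library, and together they summed to between 0.640 and 1.63 FPKM. Only 2 of them passed the low-count filter, and 1, Muc16, fell at 3 days after CP on the normal diet.

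Levels of the 10 genes spanned a wide range, read per length in FPKM. Cldn4, a tightening claudin, led with a median of 204 FPKM over the 18 libraries (150.8 to 328). Cldn7 followed at 60.7, Cldn8 at 36.4, Tjp1 at 28.4, Cldn23 at 19.2, Ocln at 8.47, Cldn12 at 7.16 and Cldn1 at 3.09 FPKM. Cldn3 and Cldn2 were rare, with medians of 0.142 and 0.0988 FPKM, and had no counts in 5 and 4 libraries. Among neighbours in this order, ranges over libraries overlapped between Cldn7 and Cldn8, Cldn8 and Tjp1, Tjp1 and Cldn23, Ocln and Cldn12, and Cldn3 and Cldn2. Cldn8, at 10.1 to 95.3 FPKM, also overlapped Cldn23 (12.6 to 26.4 FPKM) and Ocln (6.81 to 12.0 FPKM). The table held 30 claudin genes, and the 22 outside the 10 genes summed together to between 10.5 and 38.8 FPKM.

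**Figure D1:**
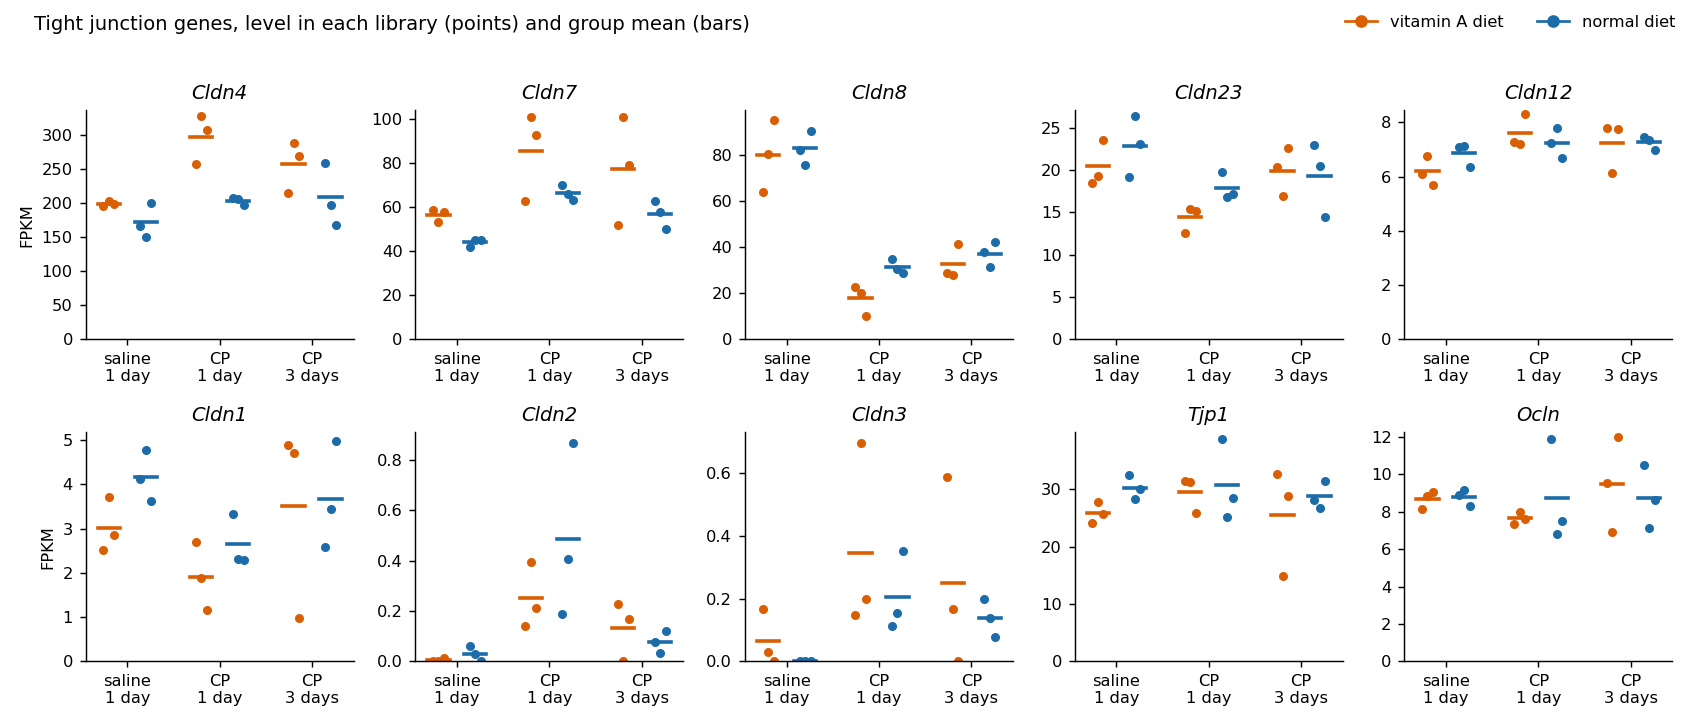
Level of each gene in FPKM (linear axis from 0) in every library: points are single mice, horizontal bars group means, with 3 mice per group. The Cldn8 points after CP, at 10.1 to 42.2 FPKM, all sit below the saline points at 63.8 to 95.3 FPKM, while the Cldn4 and Cldn7 points at 1 day after CP on vitamin A, from 258.0 and 63.1 FPKM upward, lie above their saline points.

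The first question was what CP did to these genes at 1 day. The comparisons at 1 and 3 days use the same saline libraries. On the vitamin A diet, Cldn8 and Cldn23 fell and Cldn4, Cldn7 and Cldn2 rose. Mice on the normal diet showed the fall of Cldn8 and the rise of Cldn7 and Cldn2. Passing means an adjusted p under 0.05 in edgeR's quasi-likelihood test over 19323 genes. That is 5 of 10 genes on vitamin A, where 19.3% of all genes passed (10.2% higher and 9.05% lower), and 3 of 10 on the normal diet, where 11.8% did (7.26% higher and 4.49% lower). Cldn2 and Cldn3 entered the test only through CP libraries, as described below, so these counts support nothing by themselves. Over the other 8 genes the median change was 0.00 on vitamin A and 0.02 on the normal diet (log2), beside medians of -0.01 and 0.00 over all genes.

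Cldn8, which tightens kidney epithelia against cations, changed most among the well-measured genes. At 1 day on the vitamin A diet it had 22.9, 20.2 and 10.1 FPKM after CP, against 63.8, 80.4 and 95.3 FPKM after saline. With the normal diet, Cldn8 had 35.0, 30.3 and 28.6 FPKM after CP, against 82.4, 75.8 and 90.6 FPKM after saline. The groups did not overlap on either diet, and the highest CP library held less than the lowest saline library in each case. The level was 4.52-fold lower after CP on vitamin A (log2 -2.17, SE 0.24, edgeR adjusted p = 6.59e-06) and 2.62-fold lower on the normal diet (log2 -1.39, SE 0.24, adjusted p = 0.000739). Both calls held without any 1 of the 6 libraries of the comparison and under every other setting tried, with log2 changes from -2.41 to -1.89 and from -1.47 to -1.32 when libraries were left out.

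At 3 days Cldn8 was still low. It had 28.8, 27.8 and 41.3 FPKM after CP on vitamin A and 37.8, 31.3 and 42.2 FPKM after CP on the normal diet, all below the saline libraries. The level was 2.43-fold lower than after saline on vitamin A (log2 -1.28, SE 0.24, adjusted p = 0.00204) and 2.21-fold lower on the normal diet (log2 -1.15, SE 0.24, adjusted p = 0.00381). Without the library that stood apart the change on vitamin A was -1.18 (adjusted p = 0.0143). Cldn8 was the 1 gene of the 10 that passed at 3 days against saline on each diet, where 5.98% of all genes passed on vitamin A (4.32% higher and 1.67% lower) and 10% on the normal diet (6.74% higher and 3.30% lower).

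Between 1 and 3 days after CP, Cldn8 rose 1.86-fold on vitamin A (log2 0.89, SE 0.24, adjusted p = 0.0388), and the 3-day libraries all lay above the 1-day ones. It was the 1 gene of the 10 to pass there, where 4.24% of all genes did (2.55% higher and 1.69% lower). This call was lost without replicate 2 or 3 of CP at 1 day (adjusted p = 0.0636 and 0.13) and without replicate 1 or 3 of CP at 3 days (0.0521 and 0.107), and with the low-count filter removed (0.0569), with the replicate block (0.063), in limma without a filter (0.0769) and with only the groups compared in the fit (0.325). On the normal diet the change from 1 to 3 days was 0.24 (95% interval -0.25 to 0.73, adjusted p = 0.783) with overlapping libraries. None of the 10 genes passed on that diet in edgeR, DESeq2 or limma, where 1.44% of all genes passed in edgeR (1.22% higher and 0.217% lower). An unadjusted p under 0.05 was reached by 1 of the 10, beside 11.3% of all genes. The difference between diets in the change from 1 to 3 days was 0.65 (-0.04 to 1.35, adjusted p = 0.592), so the diets were not shown to differ in it.

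Umbrella cell markers moved with Cldn8. At 1 day on vitamin A 5 of 5 fell, and their summed level was 1631 to 2665 FPKM after CP, against 5222 to 5439 FPKM after saline. On the normal diet 2 of 5 fell, with 3015 to 4146 FPKM after CP, against 5404 to 5659 FPKM after saline. At 3 days 3 of 5 fell on each diet, with sums of 2600 to 4142 FPKM on vitamin A and 3215 to 3813 FPKM on the normal diet. Their part in the Cldn8 result was not tested. Over the 18 libraries the genes whose log2 levels were most like those of Cldn8 were AA986860 (r = 0.976), Adi1 (r = 0.975) and Snx31 (r = 0.973). Snx31 encodes a sorting nexin known in mouse umbrella cells. These correlations are a description, since the libraries share their groups.

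Cldn4 and Cldn7 went the other way. Cldn7, which also acts outside the junction with Epcam, had 63.1, 101.0 and 92.7 FPKM after CP at 1 day on vitamin A, against 58.7, 53.3 and 57.6 FPKM after saline. With the normal diet, Cldn7 had 70.3, 66.3 and 63.3 FPKM after CP, against 41.8, 45.2 and 45.0 FPKM after saline. No CP library of either diet overlapped its saline group. The rise was 1.504-fold on vitamin A (log2 0.59, SE 0.19, adjusted p = 0.0359) and 1.53-fold on the normal diet (log2 0.62, SE 0.19, adjusted p = 0.0414). Both calls lie close to the threshold, and neither held in limma on FPKM under any of its 3 settings (adjusted p = 0.057 to 0.0892 on vitamin A and 0.0683 to 0.108 on the normal diet). On vitamin A the call was lost without replicate 2 or 3 of CP (adjusted p = 0.165 and 0.107) and without saline replicate 1, 2 or 3 (0.0742, 0.118 and 0.0975), and on the normal diet without any 1 of the 6 libraries (0.0835 to 0.131).

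Cldn4 had 258.0, 328 and 308.4 FPKM after CP at 1 day on vitamin A, against 195.7, 202.6 and 199.5 FPKM after saline, with no overlap. It rose 1.49-fold (log2 0.57, SE 0.16, adjusted p = 0.0177), a call lost without CP replicate 2 (0.0768) or without saline replicate 1, 2 or 3 (0.0593, 0.053 and 0.0649). With the normal diet, Cldn4 had 207.0, 206.1 and 197.7 FPKM after CP, against 166.7, 150.8 and 200.1 FPKM after saline, and the groups overlapped (log2 0.26, -0.08 to 0.60, adjusted p = 0.334). The difference between the diets in this change was 0.31 (-0.16 to 0.79, adjusted p = 0.811).

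At 3 days neither gene passed. Cldn4 was 0.38 higher than after saline on vitamin A (0.04 to 0.72, adjusted p = 0.198) and 0.29 higher on the normal diet (-0.05 to 0.62, adjusted p = 0.311). For Cldn7 the values were 0.46 on vitamin A (0.07 to 0.86, adjusted p = 0.182) and 0.38 on the normal diet (-0.01 to 0.78, adjusted p = 0.236). Cldn7 at 3 days on vitamin A had 52.0, 101.2 and 79.2 FPKM, and its highest value came from the library that stood apart. Without that library its change against saline was 0.22 (adjusted p = 0.534), and without replicate 1 it was 0.68 (adjusted p = 0.0142).

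Over the 18 libraries Cldn4 and Cldn7 varied together (r = 0.879 of log2 levels), and each ran against Cldn8 (r = -0.70 for Cldn4 and -0.72 for Cldn7). Likest to Cldn7 were Trir (r = 0.932), Elf3 (r = 0.931) and Cltb (r = 0.930). Likest to Cldn4 were Cd14 (r = 0.904), Eif4h (r = 0.881) and Cldn7 itself. Cldn4 lies on chromosome 5 (GRCm39, 134973977 to 134975788, minus strand), near Cldn3 (135015068 to 135016330, plus strand), and Cldn7 on chromosome 11 (69855605 to 69858712, plus strand). Markers of the epithelium as a whole rose with them: 5 of 6 passed at 1 day on vitamin A, with a summed level of 3915 to 7670 FPKM after CP, against 2968 to 3120 FPKM after saline. On the normal diet 1 of 6 passed, with 4600 to 5465 FPKM after CP, against 3082 to 3298 FPKM after saline. Basal cell markers rose as well, 4 of 5 on each diet. So did markers of squamous change (Krt4, Krt6a, Krt13, Sprr1b and Sprr2a1), of which 4 of 4 tested rose on vitamin A and 3 of 4 on the normal diet. Their summed level at 1 day was 175 to 263 FPKM after CP, against 47.9 to 101 FPKM after saline on vitamin A, and 98.9 to 158 FPKM after CP, against 57.5 to 77.4 FPKM after saline on the normal diet. Between the diets at 1 day after CP 1 of them, Krt13, was higher on vitamin A (log2 2.26, adjusted p = 0.0415), as were 0.238% of all genes. This call was lost without replicate 1 of CP on the normal diet, where 0 of all genes passed. The part of these markers in the Cldn4 and Cldn7 results was not tested.

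**Figure D2:**
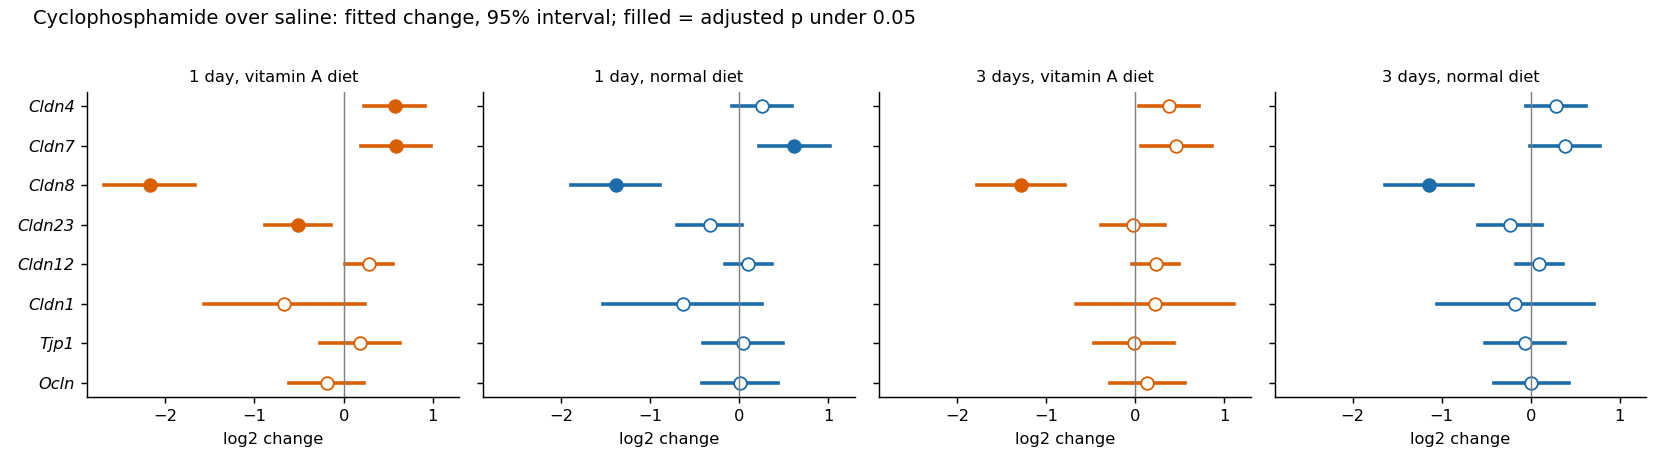
Fitted log2 change after CP over saline for the 8 genes measured in every library, by day and diet, with 95% intervals (horizontal axis, log2); filled points have an edgeR adjusted p under 0.05. Cldn8 lies left of 0 in every panel, from -2.17 at 1 day on vitamin A to -1.15 at 3 days on the normal diet, whereas Tjp1 and Ocln straddle 0 throughout.

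Because Cldn4 and Cldn7 moved together, the sequences at their starts are shown, 250 bases before to 50 bases after each start, on the strand of the gene, from RefSeq on GRCm38.p6. Capitals mark the half-site of retinoic acid receptors (AGGTCA, read on either strand) and the AP-1 motif (TGANTCA, read on either strand). Cldn7 has 2 annotated starts.
Cldn4, chr5:134946885-134947184, minus strand: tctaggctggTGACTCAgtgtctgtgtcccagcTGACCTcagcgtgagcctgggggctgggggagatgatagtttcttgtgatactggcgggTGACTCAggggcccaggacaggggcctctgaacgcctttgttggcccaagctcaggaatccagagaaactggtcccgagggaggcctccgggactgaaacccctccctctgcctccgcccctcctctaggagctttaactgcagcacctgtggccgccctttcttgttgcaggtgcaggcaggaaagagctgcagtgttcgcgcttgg
Cldn7, chr11:69964529-69964828, plus strand: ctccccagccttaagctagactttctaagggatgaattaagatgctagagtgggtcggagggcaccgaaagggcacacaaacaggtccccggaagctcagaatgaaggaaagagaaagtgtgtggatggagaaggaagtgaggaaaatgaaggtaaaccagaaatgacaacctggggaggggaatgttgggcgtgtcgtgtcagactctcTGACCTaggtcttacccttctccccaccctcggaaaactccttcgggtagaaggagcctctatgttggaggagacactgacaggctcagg
Cldn7, chr11:69965171-69965470, plus strand: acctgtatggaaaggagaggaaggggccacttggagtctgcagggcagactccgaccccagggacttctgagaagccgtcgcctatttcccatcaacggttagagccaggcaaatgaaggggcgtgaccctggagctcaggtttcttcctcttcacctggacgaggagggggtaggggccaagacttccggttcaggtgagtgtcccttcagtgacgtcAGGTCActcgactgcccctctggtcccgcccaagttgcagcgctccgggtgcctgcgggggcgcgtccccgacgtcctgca

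The Cldn4 window holds 1 half-site, 217 bases before the start, and 2 AP-1 matches, 240 and 158 bases before it. Each Cldn7 window holds 1 half-site, 40 and 31 bases before its start, and no AP-1 match. The marked motifs do not overlap. Both Cldn7 windows also hold the ETS core CCGGAA (either strand), the motif bound by Elf3 and its relatives. Of the 8 genes with an entry in the promoter table, 3 had a half-site (Cldn4, Cldn7 and Ocln), 1 an AP-1 match (Cldn4) and 3 an ETS core (Cldn12, Cldn7 and Ocln). Among all 27025 genes with a promoter window, 18.1% had a window with the half-site, 8.97% with the AP-1 motif and 16.7% with the ETS core. Among the 32851 windows these shares were 16.3%, 7.81% and 14.9%, and 0.46% held AP-1 more than once. The Grainyhead-like motif AACCNGTT (either strand) was in none of the 8 genes' windows and in those of 2.35% of all genes. These are matches of letters only.

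Cldn23, a claudin that strengthens the barrier of the mouse gut, had 12.6, 15.5 and 15.2 FPKM after CP at 1 day on vitamin A, against 18.5, 19.3 and 23.6 FPKM after saline. The groups did not overlap, and the level was 1.43-fold lower after CP (log2 -0.51, SE 0.17, adjusted p = 0.0468). The call was lost without any 1 of the 6 libraries (adjusted p = 0.0539 to 0.17), with RLE scaling (0.0503), with the replicate block (0.0659) and in limma on FPKM under each of its 3 settings (0.0557 to 0.084). With the normal diet, Cldn23 had 19.8, 16.9 and 17.1 FPKM after CP, against 19.2, 26.4 and 23.1 FPKM after saline, with overlap (log2 -0.33, -0.70 to 0.03, adjusted p = 0.238). At 3 days its change against saline was -0.02 on vitamin A (-0.39 to 0.34, adjusted p = 0.961) and -0.23 on the normal diet (-0.59 to 0.13, adjusted p = 0.458). Likest to Cldn23 over the 18 libraries were Gm30582 (r = 0.818), Tmc7 (r = 0.813) and Gm11992 (r = 0.804).

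Cldn2, the cation and water channel of leaky epithelia, was near the limit of detection. At 1 day on vitamin A the CP libraries held 10, 25 and 14 counts, against 0, 0 and 1 after saline. On the normal diet they held 13, 34 and 70 counts, against 4, 2 and 0 after saline. No library reached the cutoff of the low-count filter (0.406 CPM, counts scaled to the library total) after saline and 9 did after CP, so the gene was tested only because it was high there. Scaled by library totals, the summed counts were 68.5-fold higher after CP on vitamin A (49 against 1, exact 95% counting interval 11.7 to 2761) and 20.6-fold higher on the normal diet (117 against 6, interval 9.20 to 57.4). These intervals cover counting error only.

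The fitted changes of Cldn2 passed on vitamin A (log2 5.59, SE 1.48, edgeR adjusted p = 0.0119) and on the normal diet (log2 4.10, SE 1.23, adjusted p = 0.0368). They were lost on vitamin A without saline replicate 1 or 2 (adjusted p = 0.0563 and 0.0574) and in limma on log2(FPKM + 1) (0.117), and on the normal diet without CP replicate 2 or 3 (0.0715 and 0.163) or without saline replicate 1, 2 or 3 (0.0604, 0.11 and 0.135). With the replicate number as a block the call on the normal diet was lost too (0.0644). At 3 days the counts were 19, 0 and 18 on vitamin A and 9, 4 and 12 on the normal diet, and neither change against saline passed (adjusted p = 0.0702 and 0.516). Without replicate 2 at 3 days on vitamin A, the library with no Cldn2 count, the change there passed (log2 5.26, adjusted p = 0.0179). In group means per length, Cldn2 averaged 0.250 ± 0.131 FPKM on vitamin A and 0.487 ± 0.346 FPKM on the normal diet at 1 day after CP (SD, n = 3 each), far below the 298 ± 36.1 and 204 ± 5.14 FPKM of Cldn4. Likest to Cldn2 were Sgk2 (r = 0.893), Slc7a11 (r = 0.882) and Canx (r = 0.879), a description from few counts.

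Cldn3, a tightening claudin, was as rare. At 1 day the CP libraries held 4, 17 and 5 counts on vitamin A, against 7, 1 and 0 after saline, and 3, 5 and 11 counts on the normal diet, against 0 in each of 3 saline libraries. With the saline count of 0 set to a floor of 3 over the group, its scaled counts on the normal diet were 6.70-fold higher after CP at 1 day. At 3 days they were 4.66-fold higher. These values depend on the floor, take the CP counts as exact and leave out the spread between mice, so they are not lower bounds. It did not pass in any comparison in edgeR (adjusted p = 0.0752 at 1 day on the normal diet and 0.27 on vitamin A), while DESeq2 called it at 1 day on the normal diet (0.0285). Cldn3 reached the low-count cutoff in 3 libraries, all after CP, and shares its locus with the opposite-strand RNA Wbscr25, which had 0 to 6 counts. Whether counting used strand is not given in the sources used here, so reads of the pair cannot be told apart.

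The other 4 genes did not pass in any comparison with saline. Tjp1 had 31.4, 31.3 and 25.8 FPKM after CP at 1 day on vitamin A, against 24.0, 27.8 and 25.7 FPKM after saline, and 38.7, 25.1 and 28.4 FPKM after CP on the normal diet, against 32.5, 28.3 and 30.0 FPKM after saline. Its groups overlapped on both diets, and the changes were 0.18 (95% interval -0.27 to 0.63, adjusted p = 0.603) and 0.04 (-0.41 to 0.49, adjusted p = 0.935). At 3 days on vitamin A its lowest value, 14.8 FPKM, came from the library that stood apart. The change against saline there was -0.02 with that library and 0.25 without it (adjusted p = 0.983 and 0.386).

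Ocln had 7.34, 7.97 and 7.60 FPKM after CP at 1 day on vitamin A, all just below the 8.16, 8.82 and 9.02 FPKM after saline. The change was -0.19 (-0.62 to 0.23, adjusted p = 0.558) on vitamin A and 0.01 (-0.42 to 0.43, adjusted p = 0.988) on the normal diet, where 1 CP library at 11.9 FPKM exceeded all saline libraries. Cldn12, which lacks the usual scaffold-binding tail of claudins, changed by 0.28 on vitamin A (0.02 to 0.55, adjusted p = 0.127) and by 0.10 on the normal diet (-0.17 to 0.36, adjusted p = 0.674). Its CP libraries lay above saline without overlap on vitamin A and overlapped on the normal diet. Its group means stayed between 6.19 and 7.60 FPKM. Cldn1, the claudin of the epidermal barrier, averaged 1.91 ± 0.768 FPKM on vitamin A and 2.65 ± 0.593 FPKM on the normal diet at 1 day after CP, against 3.02 ± 0.617 and 4.17 ± 0.575 FPKM after saline. Its changes of -0.67 (-1.57 to 0.24) and -0.64 (-1.53 to 0.26) did not pass (adjusted p = 0.309 and 0.371). With only the groups compared in the fit, the change on the normal diet passed (-0.65, adjusted p = 0.0357), and there the CP libraries all lay below saline. At 3 days on vitamin A its libraries ranged widely, with 4.89, 4.70 and 0.978 FPKM, and its change against saline was 0.22 with the library that stood apart and -0.05 without it (adjusted p = 0.834 and 0.975). For Ocln that change was 0.14 with the library and 0.32 without it (adjusted p = 0.771 and 0.389). From 1 to 3 days on vitamin A the change of Cldn1 was 0.89 (edgeR adjusted p = 0.269). Without replicate 3 at 3 days, its lowest library, that change of Cldn1 passed (log2 1.34, adjusted p = 0.0173), where Cldn8 did not.

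The make-up of the claudin pool followed these changes. Of the summed FPKM of 30 claudins, Cldn8 took 4.08 ± 1.81% after CP at 1 day and 7.79 ± 1.80% after CP at 3 days on vitamin A, against 19.9 ± 3.21% after saline. On the normal diet it took 8.96 ± 0.665% and 10.5 ± 2.66%, against 22.8 ± 0.503% after saline. Cldn4 took 67.2 ± 1.14% after CP at 1 day on vitamin A, against 49.9 ± 1.49% after saline, and 58.4 ± 0.673% on the normal diet, against 47.3 ± 3.17% after saline (SD, n = 3 each). Cldn7 took 19.1 ± 2.62% and 19.1 ± 0.417% after CP at 1 day, against 14.2 ± 1.01% and 12.2 ± 1.00% after saline, on vitamin A and the normal diet in turn. None of these shares overlapped between CP at 1 day and saline on the same diet. Shares of the same sum are bound to each other, so a fall of Cldn8 by itself raises the shares of the others. On the normal diet the level of Cldn4 itself overlapped between CP at 1 day and saline (log2 0.26, edgeR adjusted p = 0.334).

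A ratio of 2 genes within a library is free of that library's scaling. Cldn4 over Cldn8 was 11.3 to 30.5 after CP at 1 day on vitamin A, against 2.09 to 3.07 after saline, and 5.92 to 6.90 on the normal diet, against 1.99 to 2.21 after saline. At 1 day after CP the 3 ratios on vitamin A all lay above the 3 on the normal diet. The ratio pairs 2 genes seen to move in opposite directions in these same libraries, so this separation supports nothing by itself. At 3 days the ratio was 6.55 to 10.4 on vitamin A and 3.98 to 6.86 on the normal diet, with overlap. The ratio was not tested. The summed level of all claudins moved less: 392 to 485 FPKM after CP at 1 day on vitamin A, against 384 to 414 FPKM after saline, and 336 to 359 FPKM on the normal diet, against 340 to 395 FPKM after saline.

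**Figure D3:**
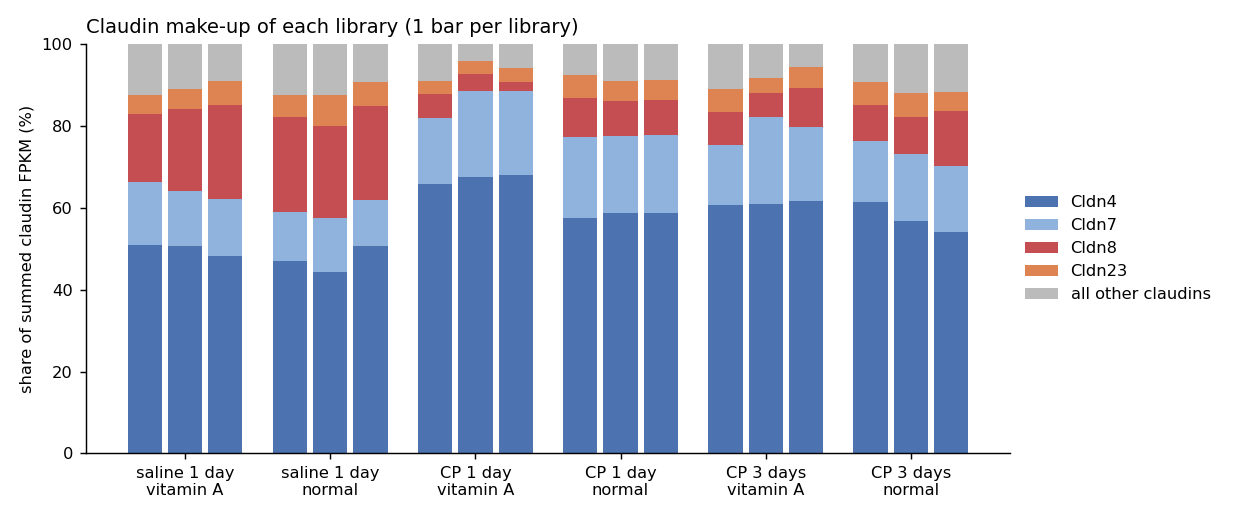
Share of each claudin in the summed FPKM of 30 claudins (vertical axis, percent), 1 bar per library, 3 libraries per group; grey holds all claudins not named in the legend. The Cldn8 segment takes 16.6% to 23.3% in saline libraries and 2.23% to 5.85% in the CP libraries at 1 day on vitamin A.

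The second question was the diet. None of the 10 genes passed between the vitamin A and the normal diet in edgeR, in saline mice (0.0104% of all genes passed), at 1 day after CP (0.466%, with 0.238% higher and 0.228% lower), at 3 days after CP (0.00518%) or over the mean of the conditions (0.0776%, with 0.0466% higher and 0.0311% lower). At an unadjusted p under 0.05 there were 0, 2, 1 and 4 of the 10 genes in these comparisons, beside 3.78%, 11.1%, 3.76% and 7.49% of all genes. DESeq2 called 0, 2, 0 and 1 of the 10, beside 0.088%, 2.58%, 0.0569% and 0.642% of all genes, and limma on FPKM called 0 in each. Among the 8 genes measured in every library, those nearest the threshold were Cldn4, Cldn7 and Cldn8. The rare Cldn3 was also among the 4 genes over the mean of the conditions.

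At 1 day after CP the vitamin A libraries of Cldn8, at 22.9, 20.2 and 10.1 FPKM, all lay below the normal-diet libraries at 35.0, 30.3 and 28.6 FPKM. The change was -0.84 (95% interval -1.33 to -0.34, edgeR adjusted p = 0.131). DESeq2 called it (adjusted p = 0.0358). Leaving out single libraries gave -1.07 to -0.55: edgeR called it without replicate 1 of the vitamin A group (-1.07, adjusted p = 0.0416) and in none of the other 5 cases, and without replicate 3 of that group it was -0.55 (adjusted p = 0.407). The authors' deposited table gives -0.84 with an adjusted p of 0.0322. In saline mice Cldn8 had 63.8, 80.4 and 95.3 FPKM on vitamin A, against 82.4, 75.8 and 90.6 FPKM on the normal diet, with overlap (-0.05, -0.53 to 0.44, adjusted p = 1). The test of the difference itself, whether the fall after CP was steeper on vitamin A, gave -0.79 (-1.48 to -0.09, adjusted p = 0.568). No gene of all 19323 passed that test in edgeR, where 1505 had an unadjusted p under 0.05, limma called 1 and DESeq2 called 120. Umbrella cell markers were 1631 to 2665 FPKM on vitamin A, against 3015 to 4146 FPKM on the normal diet, at 1 day after CP, and 0 of 5 passed. Their part in the Cldn8 values was not tested.

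Cldn4 at 1 day after CP had 258.0, 328 and 308.4 FPKM on vitamin A, all above the 207.0, 206.1 and 197.7 FPKM on the normal diet. The change was 0.53 (0.19 to 0.87, edgeR adjusted p = 0.161), DESeq2 called it (0.0343), and the authors' deposited table gives 0.53 with an adjusted p of 0.0112. In saline mice the change was 0.22 (-0.12 to 0.56, adjusted p = 1) and at 3 days after CP 0.31 (-0.02 to 0.65, adjusted p = 0.994), or 0.22 without the library that stood apart. Over the mean of the conditions it was 0.35 (0.16 to 0.55, adjusted p = 0.256), and DESeq2 called it (0.0314).

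Cldn7 in saline mice had 58.7, 53.3 and 57.6 FPKM on vitamin A, against 41.8, 45.2 and 45.0 FPKM on the normal diet, with no overlap. The change was 0.37 (-0.03 to 0.77, adjusted p = 1 in edgeR and at least 0.14 under the other settings), whereas the authors' deposited table gives 0.37 with an adjusted p of 0.0381. It was 0.34 (-0.06 to 0.74, adjusted p = 0.539) at 1 day and 0.45 (0.05 to 0.85, adjusted p = 0.994) at 3 days after CP, or 0.21 without the library that stood apart. The mean over the conditions was 0.39 (0.16 to 0.62, adjusted p = 0.277), and it passed without replicate 1 of CP at 3 days on vitamin A (0.46, adjusted p = 0.0447). The other genes differed between the diets by changes of -0.33 (Cldn1, -0.85 to 0.18) to -0.03 (Cldn12, -0.18 to 0.12) over the mean of the conditions, leaving aside Cldn2 and Cldn3. Tjp1 stood at -0.16 (-0.42 to 0.10), Cldn23 at -0.15 (-0.36 to 0.06) and Ocln at -0.03 (-0.28 to 0.21). Without the library that stood apart the mean was -0.07 for Tjp1, 0.02 for Ocln and 0.00 for Cldn12, and none of these 3 passed.

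**Figure D4:**
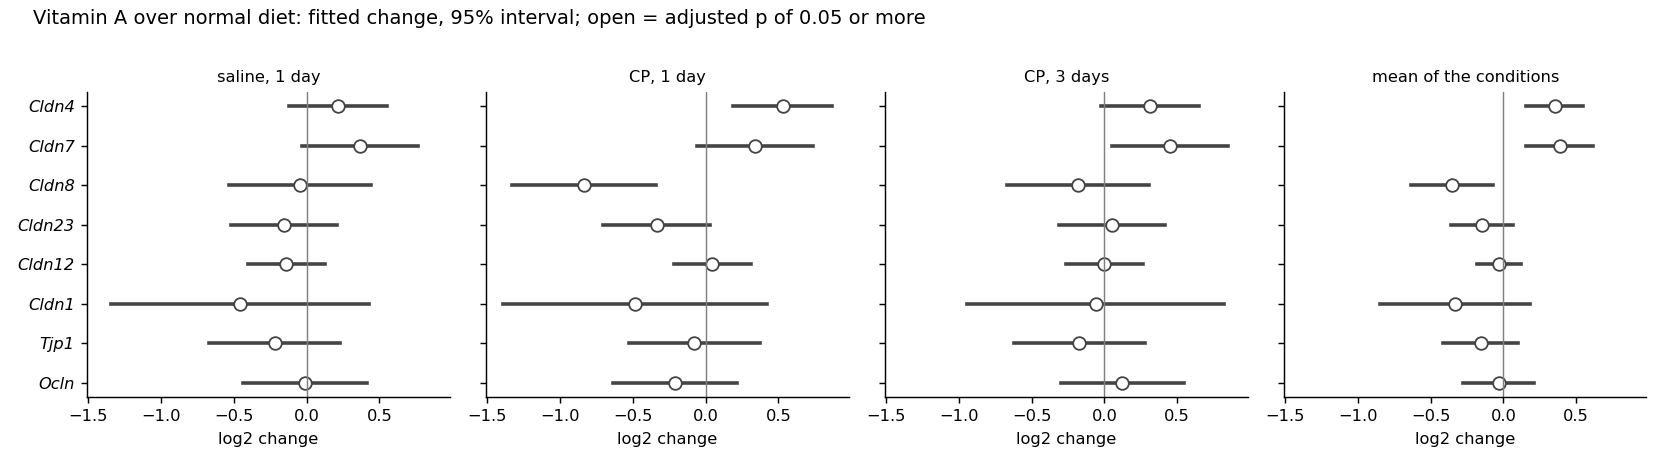
Fitted log2 change on the vitamin A over the normal diet for the 8 genes measured in every library, in each condition and over their mean, with 95% intervals of the single gene (horizontal axis, log2); every point is open because no edgeR adjusted p was under 0.05. At 1 day after CP Cldn8 lies at -0.84 and Cldn4 at 0.53, and over the mean of the conditions Cldn4 and Cldn7 lie at 0.35 and 0.39.

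The rest of the junction was read from 3 fixed lists. Of 23 other claudins on the list 22 were in the count table (Cldn26 was not matched), and 6 passed the low-count filter and 7 had no count in any library. At 1 day after CP 2 of 6 fell and 0 rose on vitamin A, and 0 passed on the normal diet in edgeR. On each diet 4 had an unadjusted p under 0.05, beside 31.9% of all genes on vitamin A and 26% on the normal diet. None of the 6 had a log2 change above 0, with medians of -1.56 on vitamin A and -1.27 on the normal diet. Of all genes 10.2% rose and 9.05% fell on vitamin A, and 7.26% rose and 4.49% fell on the normal diet. Cldn10, which forms ion-selective channels in the kidney, averaged 1.23 ± 0.733 FPKM after CP on vitamin A, against 5.91 ± 1.64 FPKM after saline (log2 -2.26, SE 0.49, adjusted p = 0.00307). Its change with the normal diet was -1.46 (adjusted p = 0.0509). Cldn5, the claudin of blood vessel walls, averaged 9.39 ± 2.31 FPKM after CP, against 18.2 ± 4.78 FPKM after saline on vitamin A (log2 -0.97, SE 0.25, adjusted p = 0.0105). Endothelial markers did not pass beside it (0 of 6), with summed levels of 49.7 to 55.4 FPKM after CP, against 40.0 to 56.7 FPKM after saline. From 1 to 3 days on the normal diet Cldn11, a claudin of myelin and of the testis, rose by 3.43 (adjusted p = 0.0399) at a mean of 1.26 ± 0.755 FPKM at 3 days, against 0.116 ± 0.0573 FPKM at 1 day.

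Of 14 other membrane proteins of the junction, 3 rose and 3 fell at 1 day on vitamin A and 2 rose and 2 fell on the normal diet, with medians of -0.07 and 0.09. Of all genes 10.2% rose and 9.05% fell on vitamin A, and 7.26% rose and 4.49% fell on the normal diet. Lsr (angulin-1), which recruits tricellulin to corners where cells meet, rose on both diets: 60.7 ± 12.6 FPKM after CP, against 32.8 ± 0.749 FPKM after saline on vitamin A (log2 0.88, adjusted p = 0.000904), and 48.1 ± 6.66 against 32.7 ± 1.40 FPKM on the normal diet (log2 0.58, adjusted p = 0.0288). F11r (JAM-A), an adhesion protein of the junction, rose by 0.43 (adjusted p = 0.0396) and 0.48 (0.0375). Epcam, which stabilises Cldn7, rose on vitamin A by 0.56 (adjusted p = 0.0339). Tricellulin itself, Marveld2, did not pass (-0.08 and 0.12, adjusted p = 0.815 and 0.737). Jam2 fell by 1.10 on vitamin A (adjusted p = 0.000377) and by 0.71 on the normal diet (0.0171), and Clmp fell by 0.85 (0.0315) and 0.96 (0.0251). Marveld3, a relative of occludin, fell by 0.76 on vitamin A (adjusted p = 0.00252).

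Jam2 and Clmp are also made outside the epithelium, and fibroblast markers fell beside them: 5 of 5 on vitamin A, with summed levels of 281 to 558 FPKM after CP, against 1361 to 1586 FPKM after saline, and 4 of 5 on the normal diet, with 411 to 544 FPKM after CP, against 1275 to 1489 FPKM after saline. Their part was not tested. Between 1 and 3 days on vitamin A Jam2 rose by 1.04 (adjusted p = 0.00449), and 5 of 5 fibroblast markers rose too. At 3 days against saline Cxadr, a receptor of the junction, was 0.54 higher on vitamin A (adjusted p = 0.045) and Esam, an endothelial adhesion protein, 0.58 higher on the normal diet (adjusted p = 0.0295), where 4 of 6 endothelial markers rose.

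Of 25 plaque and polarity genes 24 were tested. At 1 day 4 rose and 2 fell on vitamin A and 0 rose and 2 fell on the normal diet, with medians of -0.10 and -0.18. Of all genes 19.3% passed on vitamin A and 11.8% on the normal diet. On vitamin A the angiomotin Amotl2 rose by 1.19 (adjusted p = 0.00465), the polarity gene Pard6b by 0.85 (0.009), the trafficking GTPase Rab13 by 0.60 (0.0498) and Tjap1 by 0.56 (0.0203). The polarity kinase Prkcz fell by 0.90 (adjusted p = 0.00558). Cgnl1 (paracingulin), a junction plaque protein, fell on both diets, by 0.62 (0.024) and 0.87 (0.00483), and Magi2 fell by 1.25 on the normal diet (0.0287). Tjp3, a scaffold related to Tjp1, changed by -0.23 on vitamin A and 0.23 on the normal diet and did not pass (adjusted p = 0.465 and 0.514). At 3 days against saline 0 of the 24 passed on vitamin A in edgeR, where 3 had an unadjusted p under 0.05, beside 18.9% of all genes. At that time Amotl2 (0.97, adjusted p = 0.0285) and Rab13 (0.79, 0.0205) rose and Magi2 fell by 1.22 (0.0333) on the normal diet. From 1 to 3 days Amotl2 rose by 1.11 on the normal diet (adjusted p = 0.0485). No gene of these 3 lists passed between the diets in edgeR in saline mice, at 1 day or at 3 days. At an unadjusted p under 0.05 there were at most 3 genes of a list in any of these comparisons. These were the plaque and polarity genes at 1 day after CP, where 11.1% of all genes had such a p.

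**Figure D5:**
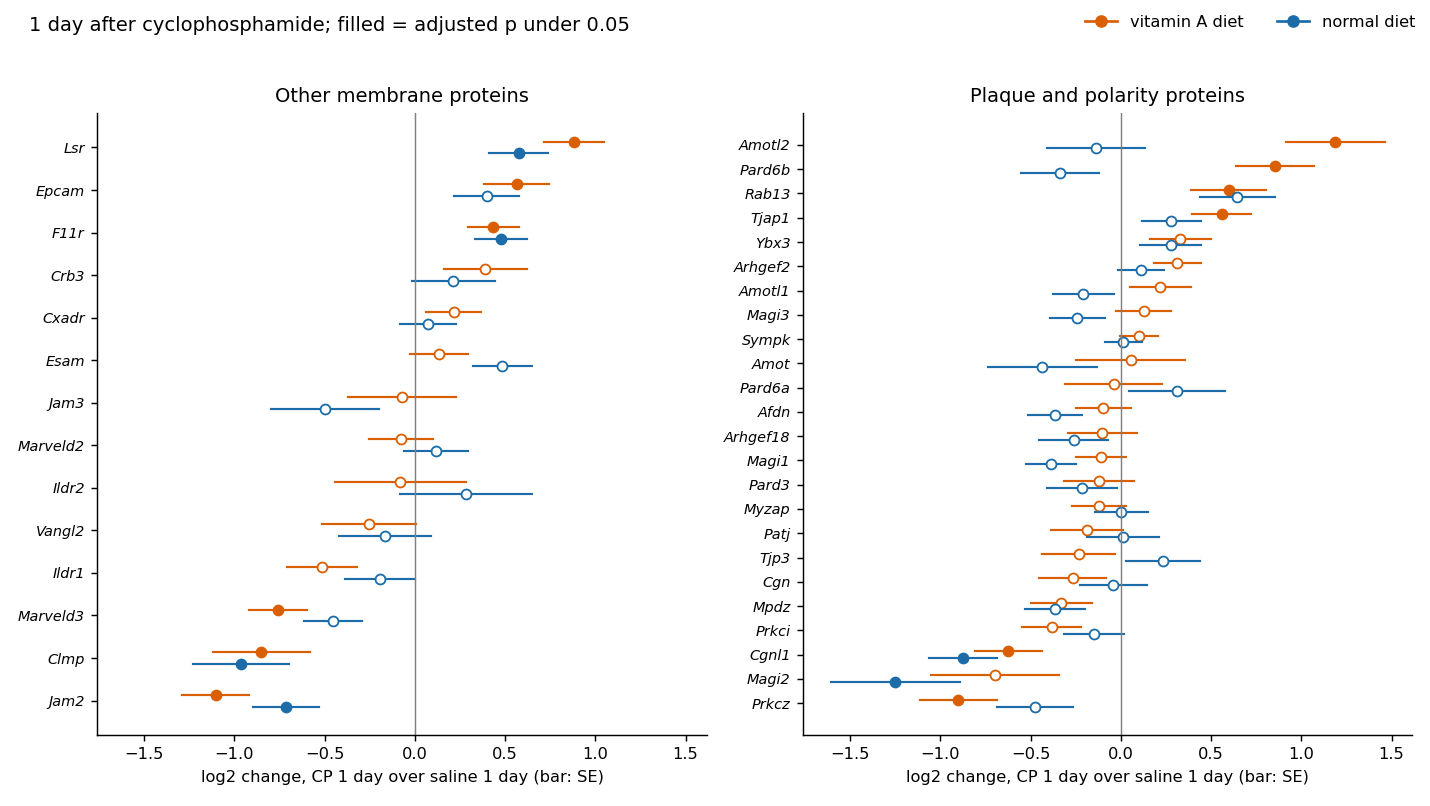
Fitted log2 change at 1 day after CP over saline for the 14 other membrane proteins and 24 plaque and polarity genes (horizontal axis, log2; bars are SE), vitamin A diet in orange and normal diet in blue; filled points have an edgeR adjusted p under 0.05. Lsr and F11r are filled on the right for both diets and Jam2, Clmp and Cgnl1 on the left, while most genes lie within 0.5 of 0.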

How the data were processed

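Whole-bladder RNA was sequenced in 18 libraries (6 groups of 3 mice), grouped by the labels. The build is GRCm39 per the submitters' processing notes, which also name DESeq2 1.20.0, featureCounts 1.5.0-p3 and HISAT2 2.0.5 but give no roles. The authors deposited raw gene counts, FPKM values, and diet tables with log2 ratios (normal over vitamin A, sign turned here) and p-values, which list only genes with an unadjusted p under 0.05. The table held no per-sample columns of another series. Unnamed features (14417 of 60750, 0.474% to 0.81% of counts) were left out.

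Counts were tested with edgeR 4.0.16 (R 4.3.3; TMM, low-count filter, robust quasi-likelihood F test, 2-sided, 1 mean per group over 18 libraries, 12 residual degrees of freedom), with p-values adjusted by Benjamini-Hochberg over 19323 genes in each of 13 comparisons. SE is the absolute log2 change over the square root of F. Correlations used log2 CPM (prior count 2). Scripts were tested on simulated data. The alternatives were RLE scaling, no filter, the replicate number as a block, only the groups compared, DESeq2 1.42.0, limma 3.58.1 on log2(FPKM + 1), with and without a filter, and on log2(FPKM + 0.1), and leaving out each library. Under these alternatives, values were kept for the 10 genes and counts of calls for all genes. Calls of other listed genes and of markers were therefore not rechecked gene by gene. Named from each list were up to 4 genes each way past the threshold, and for each called member the 3 genes of most similar pattern. One gene of the plaque and polarity list is not reported here. Members and lists were chosen with earlier results of these data known. Promoter sequences are RefSeq's on GRCm38.p6, with entries for 8 of the 10 genes (Cldn8 and Cldn23 have none), and were not joined to GRCm39 coordinates. The edgeR p-values set a group difference against the spread between mice, estimated over all groups and in part shared across genes. Counting intervals (exact, 95%) cover counting error only.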

Additional observations from a re-analysis of the deposited data

How the results depend on the processing

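The falls of Cldn8 against saline kept their call under every leave-out and every other setting, on both diets and days. Of 2106 values of the 10 genes under alternatives, 126 had another sign than the reported value, and no called value was reversed. The count of genes called at 1 day after CP on vitamin A (5) was 2 with limma on log2(FPKM + 1), 3 on log2(FPKM + 0.1) and 2 with no filter in limma. At 3 days against saline it was 2 with no filter on low counts and 2 with DESeq2 on vitamin A (reported 1), and 2 with only the groups compared on the normal diet (reported 1). From 1 to 3 days on vitamin A (reported 1) it was 0 with no filter, 0 with only the groups compared and 0 with limma without a filter. Between the diets (reported 0) DESeq2 gave 2 at 1 day after CP and 1 over the mean of the conditions, where its calls over all genes were 499 and 124, against 90 and 15 in edgeR. The causes were not tested. Leaving out single libraries gave 1 to 4 genes at 1 day on vitamin A, 1 to 2 on the normal diet, 1 to 2 at 3 days on vitamin A and 1 in each case on the normal diet, 0 to 1 from 1 to 3 days on vitamin A, 0 to 1 for the diets at 1 day after CP and over the mean, and 0 in the other comparisons. Replicate numbers showed no pairing of the mice over all genes: 45 same-number pairs correlated from -0.12 to 0.20 (median 0.0016), 3 of them over 0.1. The 90 different-number pairs correlated from -0.17 to 0.21 (median 0.0040), 8 of them over 0.1, and 5 of 18 libraries correlated best with their own number. Correlations over all genes could miss a pairing that moves few genes. With the replicate number as a block the count was 4 at 1 day on vitamin A, 2 on the normal diet, 1 on each diet at 3 days and 0 from 1 to 3 days on vitamin A. Depth limits Cldn2 and Cldn3, whose libraries held at most 70 counts.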

Other observations

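Of 20 regulators of epithelial identity 19 were tested. At 1 day after CP 1 rose and 2 fell on vitamin A, and 1 rose and 1 fell on the normal diet. Of all genes 19.3% passed on vitamin A and 11.8% on the normal diet, so the share of regulators was near that of all genes. Elf3, an ETS factor of epithelia, averaged 146 ± 47.3 FPKM after CP, against 78.4 ± 11.5 FPKM after saline on vitamin A (log2 0.89, SE 0.23, edgeR adjusted p = 0.00897), and 124 ± 12.1 FPKM after CP, against 61.8 ± 3.29 FPKM after saline on the normal diet (log2 1.03, SE 0.23, adjusted p = 0.00609; SD, n = 3 each). Gata3, a factor of urothelial identity, fell by 0.83 (adjusted p = 0.00344) and Ehf by 0.65 (0.0419) on vitamin A, and Klf4, a factor of differentiating epithelia, fell by 0.74 on the normal diet (0.0138). At 3 days against saline Elf3 was 0.91 higher on vitamin A (adjusted p = 0.0198) and Snai1, which represses epithelial junction genes, 0.98 higher on the normal diet (0.018). From 1 to 3 days Klf4 rose by 1.06 on the normal diet (adjusted p = 0.00553).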
